A study of Mus musculus with 16 samples.

Results

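Calorie restriction followed by cisplatin was compared with saline in 8 of the 16 libraries of the study, chosen by the labels for preconditioning and injection: 4 CR_cisplatin and 4 BL_vehicle libraries. CR_cisplatin mice were kept on calorie restriction for 4 weeks and then received cisplatin into the peritoneum. BL_vehicle mice had no preconditioning and received 0.9% sodium chloride. All were C57BL/6 mice aged 20 weeks, and perfused kidneys were taken 72 h after the injection. Whole kidney RNA depleted of ribosomal RNA was sequenced. The other 8 libraries, cisplatin without preconditioning (BL_cisplatin) and cisplatin after hypoxia (HP_cisplatin), serve here as reference levels, all at the same age and time. No calorie-restricted group received saline, so the restriction and the drug cannot be told apart in the differences below. The labels give neither the dose, the sex, the degree of restriction nor the time of day of harvest.

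Gene levels are TPM, reads per exon length scaled to 1000000 in each library. Fold changes are differences of log2(TPM + 1), CR_cisplatin minus BL_vehicle, and understate the change of genes with low levels. The tables of reads recovered from these values held 53614406 to 62605532 reads per library. The labels do not say that each library is a separate mouse, so p-values measure the spread between these samples only. CR_cisplatin 1 carries another title code than the other 7 libraries. The reads of CR_cisplatin 4 and HP_cisplatin 4 differed less than those of any other pair of libraries. Their median squared difference over genes was 1.81 times that of counting alone, against at least 3.33 times for the other 119 pairs, so results are also given without CR_cisplatin 4. Of the cell type lists, proximal tubule markers had the highest sum in both groups: the 33 genes summed to between 28623 and 31470 TPM after calorie restriction and cisplatin and to between 27399 and 33502 TPM after saline. Adipocyte markers varied between libraries of both groups, with Adipoq at 14.9 TPM in CR_cisplatin 4, 7.31 TPM in BL_vehicle 3 and at most 0.981 TPM in the other 6.

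The kidney holds a circadian clock that drives daily rhythms of transport and metabolism. In the clock, the activators ARNTL (BMAL1) and CLOCK or NPAS2 bind E-boxes in the genes of their own repressors, the PER and CRY proteins and CIART. The repressors NR1D1 and NR1D2 (REV-ERB) bind a further element in genes such as Arntl, and DBP, TEF and HLF act at D-boxes. MHC class II molecules present peptides to CD4 T cells, and their genes depend on the coactivator CIITA. Chaperones of the endoplasmic reticulum (ER) fold secreted and membrane proteins and are induced together when unfolded protein accumulates.

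Promoters of members of these 3 gene groups are shown because the results below turn on these groups, and known elements were searched in each. They come from RefSeq on GRCm38.p6 and run 300 bases, from 250 before to 50 after the annotated start, read 5′ to 3′ on the gene's strand. Capitals mark the element searched, on both strands. In Ciart (chr3:95882179-95882478, minus strand) these are 3 E-boxes, CACGTG, which 7.15% of all 32851 promoter windows hold. In Per3 (chr4:151044616-151044915, minus strand) they are 2 D-boxes, TTATGTAA, held by 0.938% of windows. In Arntl (chr7:113207261-113207560, plus strand, 1 of its 2 overlapping windows) it is a REV-ERB element, TAGGTCA, held by 2.61% of windows.
Ciart: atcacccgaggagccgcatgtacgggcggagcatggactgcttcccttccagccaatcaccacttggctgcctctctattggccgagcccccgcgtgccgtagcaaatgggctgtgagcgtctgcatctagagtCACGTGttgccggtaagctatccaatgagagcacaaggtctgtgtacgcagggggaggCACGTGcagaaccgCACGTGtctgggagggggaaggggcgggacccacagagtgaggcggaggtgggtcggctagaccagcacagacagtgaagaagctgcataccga
Per3: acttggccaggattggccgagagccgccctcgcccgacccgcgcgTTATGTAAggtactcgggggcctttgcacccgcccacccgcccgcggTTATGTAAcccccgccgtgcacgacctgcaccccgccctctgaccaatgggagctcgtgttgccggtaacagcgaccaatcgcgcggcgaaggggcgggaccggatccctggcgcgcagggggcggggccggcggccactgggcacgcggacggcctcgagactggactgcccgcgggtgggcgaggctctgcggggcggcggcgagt
Arntl: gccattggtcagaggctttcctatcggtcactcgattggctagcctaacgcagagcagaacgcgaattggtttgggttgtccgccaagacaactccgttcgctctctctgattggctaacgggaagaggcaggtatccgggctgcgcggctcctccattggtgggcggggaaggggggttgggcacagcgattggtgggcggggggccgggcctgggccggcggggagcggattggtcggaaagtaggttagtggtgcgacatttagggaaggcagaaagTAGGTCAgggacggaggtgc

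The class II promoters of H2-Aa (chr17:34287774-34288073, minus strand) and H2-Eb1 (chr17:34305617-34305916, plus strand) hold the Y box CTGATTGG, which 4.10% of windows hold. The promoters of Calr (chr8:84846882-84847181, minus strand) and Pdia6 (chr12:17266339-17266638, plus strand) hold the ER stress element (ERSE), in Calr on the opposite strand, which 0.119% of windows hold.
H2-Aa: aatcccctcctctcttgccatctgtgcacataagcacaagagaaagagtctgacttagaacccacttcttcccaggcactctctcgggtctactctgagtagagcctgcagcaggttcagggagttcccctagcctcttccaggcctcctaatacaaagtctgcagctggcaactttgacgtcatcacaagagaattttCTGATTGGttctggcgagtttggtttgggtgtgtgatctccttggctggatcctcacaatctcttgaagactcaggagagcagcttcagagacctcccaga
H2-Eb1: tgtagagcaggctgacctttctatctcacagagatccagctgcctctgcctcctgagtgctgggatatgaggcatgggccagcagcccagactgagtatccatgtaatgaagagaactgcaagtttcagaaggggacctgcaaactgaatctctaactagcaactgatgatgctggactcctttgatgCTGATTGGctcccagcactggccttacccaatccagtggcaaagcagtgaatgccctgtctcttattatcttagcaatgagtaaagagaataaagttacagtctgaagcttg
Calr: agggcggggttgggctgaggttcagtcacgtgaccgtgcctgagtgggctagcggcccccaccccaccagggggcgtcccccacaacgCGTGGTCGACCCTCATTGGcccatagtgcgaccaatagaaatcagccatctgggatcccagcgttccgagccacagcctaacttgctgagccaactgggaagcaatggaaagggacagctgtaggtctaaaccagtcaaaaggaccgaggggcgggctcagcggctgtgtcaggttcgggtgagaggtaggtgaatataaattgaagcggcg
Pdia6: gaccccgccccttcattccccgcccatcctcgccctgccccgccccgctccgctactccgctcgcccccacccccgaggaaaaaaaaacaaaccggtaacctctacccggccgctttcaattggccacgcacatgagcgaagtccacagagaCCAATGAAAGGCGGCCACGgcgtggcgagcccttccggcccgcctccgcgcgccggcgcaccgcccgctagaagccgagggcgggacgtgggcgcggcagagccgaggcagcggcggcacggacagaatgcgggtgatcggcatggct

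Of the members with a promoter in the table, 3 of 12 core clock genes held the E-box (Per1, Cry1 and Ciart). The D-box was found in 1 of the 12 (Per3) and the REV-ERB element in 1 (Arntl). The Y box was found in 9 of 16 antigen presentation genes (H2-Aa, H2-Eb1, H2-K1, H2-D1, H2-Q6, H2-Q7, H2-T23, Tap1 and Psmb9). Of these only H2-Aa and H2-Eb1 are class II genes. The ER stress element was found in 5 of 16 chaperones (Hspa5, Hsp90b1, Pdia6, Creld2 and Calr). A match is a description of letters and not a measured binding site.

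Differences between the groups were few and small. Of 15014 genes tested with limma, 80 (0.533%) passed an adjusted p of 0.05, 49 higher (0.326%) and 31 lower (0.206%) after calorie restriction and cisplatin. An unadjusted p under 0.05 was reached by 2091 genes (13.9%), and the 4 and 4 libraries did not overlap in 1375 (9.16%), 965 higher (6.43%) and 410 lower (2.73%). The median absolute log2 fold change was 0.07 and its 95th percentile 0.33. Only 14 genes (0.0932%) had a difference of log2(TPM + 1) beyond 1 in either direction. Of these, Arntl, Slc10a2 and the small nuclear RNA model Gm24445 were called higher and Dbp, Nr1d1 and Ciart lower. The ratio of mean TPM passed 2 for further calls. Dpys was 2.58 times as high after saline, and Hist1h2af 3.35 times as high in CR_cisplatin. Gm24445 rests on 1 to 13 reads per library and lost its call with voom on the recovered reads (adjusted p = 0.0504). With mitochondrial and red blood cell transcripts and the 10 genes of highest level removed and TPM rescaled, limma turned the split to 29 higher and 41 lower, 41.4% higher in place of 61.3%, with the median of all genes at -0.02. The calls depended on single libraries: leaving out each of the 8 in turn gave between 1 call (without BL_vehicle 2) and 43 (without BL_vehicle 4), with 4 without CR_cisplatin 2, 5 without BL_vehicle 1, 2 without BL_vehicle 3, 14 without CR_cisplatin 1 and 24 without CR_cisplatin 3. Of the 80 genes Nr1d1 was called in all 8 of these fits and 38 in none. All 80 kept their direction, which was fixed in advance, since the 4 and 4 libraries overlapped for none of them. Without CR_cisplatin 4 there were 7 calls: Slc16a1, Itgb6 and Ighv6-3 higher and Nr1d1, Dbp, Per3 and Nr1d2 lower. Ighv6-3 rests on 1 to 16 reads per library. It reached 1 TPM in no saline library. It passed the filter on low values through CR_cisplatin 1, 2 and 3 together with BL_cisplatin 4 (1.11 TPM) and HP_cisplatin 4 (1.57 TPM). Without the CR_cisplatin libraries it would not have passed.

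**Figure D1:**
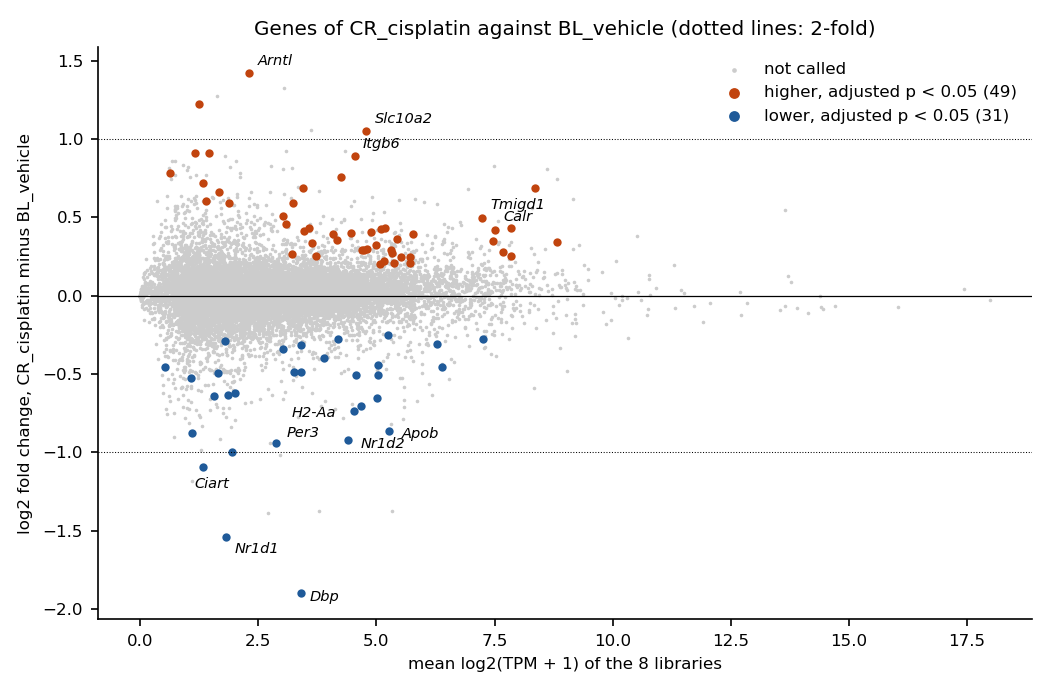
Log2 fold change of each of the 15014 genes tested (vertical axis, CR_cisplatin minus BL_vehicle) against its mean log2(TPM + 1) over the 8 libraries (horizontal axis), with 1 point per gene and the 49 higher and 31 lower calls in colour. Most genes lie close to 0, and the clock genes Arntl, Dbp and Nr1d1 lie farthest out among the calls.

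Clock genes gave 4 of the 6 calls with a difference of log2(TPM + 1) beyond 1. Of these, Ciart reached 1 TPM in all saline libraries but otherwise only in BL_cisplatin 2 and 3 (1.13 and 1.23 TPM). It thus passed the filter on low values only through saline. Of 17 core clock genes tested 2 were called higher, Arntl among them, and 5 lower (Nr1d1, Nr1d2, Per2, Per3 and Ciart), and of 13 output genes 2 lower (Dbp and Coq10b), where 0.326% of all genes tested were called higher and 0.206% lower. The median log2 fold change was -0.10 for the core and -0.22 for the output genes, beside 0.01 over all genes tested. Without CR_cisplatin 4 the core kept 3 calls and the output genes 1.

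Arntl (chr7:113207465-113314126, plus strand, mm10), which encodes the activator BMAL1, stood at 5.67, 6.69, 6.56 and 9.99 TPM in CR_cisplatin 1 to 4 and at 2.72, 2.38, 1.43 and 1.72 TPM in BL_vehicle 1 to 4. The groups did not overlap, and CR_cisplatin 4 was the highest of the 8. The log2 fold change was 1.42 ± 0.18 (SE; limma adjusted p = 0.0284). Its call ended in each fit that left out 1 library, with adjusted p from 0.0546 to 0.0833. Its partner Npas2 stood at 1.15, 1.09, 1.51 and 2.37 TPM against 0.547, 0.422, 0.235 and 0.392 TPM, with no overlap and a log2 fold change of 0.83 that missed the threshold (adjusted p = 0.0626). Clock, the other partner, differed by 0.18 (adjusted p = 0.173).

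Nr1d1 (chr11:98767932-98775333, minus strand), encoding the repressor REV-ERBα, gave the smallest adjusted p of the members described. Its levels were 1.04, 1.18, 0.820 and 1.29 TPM in CR_cisplatin 1 to 4 and 4.82, 4.64, 5.83 and 4.89 TPM in BL_vehicle 1 to 4. Every CR_cisplatin library was thus below every saline library, and the spread within each group was small beside the gap. The mean was 4.66 times as high after saline, a log2 fold change of -1.54 ± 0.09 (SE; adjusted p = 0.00108), and without 1 library adjusted p ran from 0.00309 to 0.0127. In the limma fit on all 16 libraries, which called 8 genes (0.0533%), the adjusted p of Nr1d1 was 0.589. Nr1d2, which encodes REV-ERBβ, was lower too, at 17.1, 14.6, 15.1 and 11.2 TPM against 25.7, 27.0, 31.4 and 28.5 TPM. These libraries did not overlap (-0.92 ± 0.12 SE, adjusted p = 0.0284), and the call held in 2 of the 8 fits without 1 library.

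The repressors that act on the activators differed in size. Per3 (chr4:151003652-151044665, minus strand) stood at 4.80, 4.73, 4.18 and 3.49 TPM against 8.86, 8.96, 9.83 and 8.92 TPM, with every CR_cisplatin library low. The log2 fold change was -0.94 ± 0.08 (SE; adjusted p = 0.0114), called in 6 of 8 fits without 1 library. Ciart stood at 0.768, 0.635, 0.963 and 0.518 TPM against 1.80, 2.26, 4.07 and 2.85 TPM, without overlap but with a wide spread among saline libraries (-1.09 ± 0.18 SE, adjusted p = 0.0483, called in none of the 8 fits). Per2 was lower by less, 18.9 ± 1.58 TPM against 27.3 ± 1.48 TPM (SD, n = 4; -0.51, adjusted p = 0.0284, called in 2 of 8). Per1 (-0.23), Cry1 (0.15) and Cry2 (-0.11) overlapped between the groups and were not called.

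Dbp (chr7:45705088-45710203, plus strand), the output factor that binds D-boxes, had the largest difference of log2(TPM + 1) among the calls. By ratio of mean TPM, Nr1d1 differed more (4.66 times as high after saline, against 4.30 times for Dbp). It stood at 5.87, 4.68, 4.64 and 3.11 TPM in CR_cisplatin 1 to 4 and at 16.7, 16.4, 23.3 and 22.3 TPM in BL_vehicle 1 to 4, so that the lowest saline library lay far above the highest CR_cisplatin library. The log2 fold change was -1.90 ± 0.17 (SE; adjusted p = 0.0114), called in 5 of the 8 fits without 1 library. Coq10b, a coenzyme Q binding protein, stood at 7.89 ± 0.265 TPM against 11.5 ± 0.707 TPM (SD, n = 4; -0.49, adjusted p = 0.016, called in 3 of 8). Tef, of the same family as Dbp, stood at 39.1, 41.1, 40.8 and 28.1 TPM against 45.3, 53.5, 61.2 and 54.6 TPM, without overlap and not called (-0.52, adjusted p = 0.146). Hlf, the third of that family, differed by -0.13.

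The other cisplatin groups place these levels. Dbp stood at 3.88 ± 0.804 TPM and Per3 at 3.49 ± 0.190 TPM in BL_cisplatin (SD, n = 4), beside the CR_cisplatin means of 4.57 and 4.30 TPM, and Arntl at 4.55 ± 1.06 TPM, between CR_cisplatin and saline. Nr1d1 was different in order: at 11.3 ± 0.775 TPM in BL_cisplatin it lay above saline, where CR_cisplatin lay below it. HP_cisplatin 1 to 4 stood at 10.3, 6.05, 7.48 and 0.843 TPM, and only HP_cisplatin 4, the library closest to CR_cisplatin 4, lay below saline. These are levels given as a description, with saline as the common reference and with no test.

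**Figure D2:**
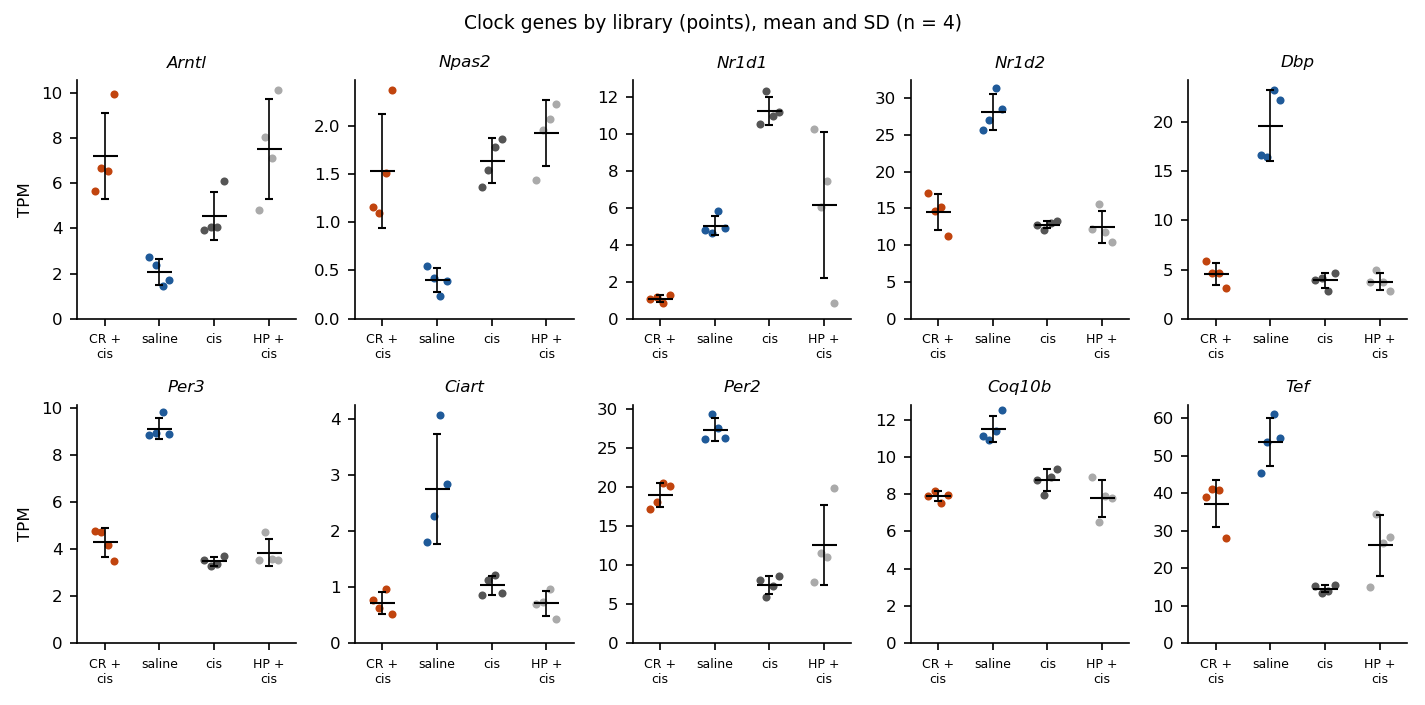
TPM of 10 clock genes (vertical axes, from 0) in each library of the 4 groups (horizontal axes: calorie restriction plus cisplatin, saline, cisplatin, hypoxia plus cisplatin), with points for libraries and bars for mean and SD of n = 4. Saline libraries stand above all 3 cisplatin groups for Dbp, Per3, Ciart, Nr1d2, Coq10b, Per2 and Tef, and below them for Arntl. The mean of Nr1d1 is lowest after calorie restriction and cisplatin and highest after cisplatin alone, with HP_cisplatin 4 also low.

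MHC class II genes were lower after calorie restriction and cisplatin. All 21 antigen presentation genes tested had a log2 fold change below 0, with a median of -0.28 beside 0.01 over all genes, and 14 of them did not overlap, against 2.73% of all genes in that direction. Of the 21, 5 were called lower (0.206% of all genes) and none higher, and all 5 belong to class II: H2-Aa, H2-Ab1, H2-Eb1, H2-DMa and Ciita. Ciita reached 1 TPM in the 4 saline libraries alone, so it passed the filter of 1 TPM in 4 libraries only through saline. Without CR_cisplatin 4 none of the 5 was called (1750 genes at an unadjusted p under 0.05 in that fit) and the list median was -0.27. In whole kidney RNA, fewer cells of a type and less RNA per cell cannot be told apart.

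H2-Aa (chr17:34282744-34287823, minus strand), the alpha chain, stood at 16.6, 18.8, 15.1 and 16.7 TPM against 28.9, 31.1, 32.0 and 23 TPM. The groups did not overlap, BL_vehicle 4 being nearest to the CR_cisplatin libraries (-0.74 ± 0.11 SE, adjusted p = 0.0338). H2-Ab1, its beta chain, stood at 18.1, 21.5, 17.5 and 18.8 TPM against 29.9, 33.4, 34.7 and 28.1 TPM (-0.71 ± 0.08 SE, adjusted p = 0.0284). H2-Eb1, a further beta chain, stood at 25.7, 26.7, 22.9 and 23.2 TPM against 38.2, 43.4, 42.4 and 33.7 TPM (-0.66 ± 0.09 SE, adjusted p = 0.0284). For all 3 the saline libraries were the higher ones without exception. Their calls held in 1, 2 and 1 of the 8 fits without 1 library.

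H2-DMa, which helps load peptide, stood at 1.73, 2.06, 1.96 and 1.96 TPM against 3.21, 3.28, 4.46 and 3.32 TPM (-0.63, adjusted p = 0.0337). Ciita, the coactivator, stood at 0.580, 0.847, 0.728 and 0.930 TPM against 1.46, 1.80, 1.46 and 1.45 TPM (-0.52, adjusted p = 0.0461). The groups overlapped in neither gene, and neither was called in any of the 8 fits without 1 library. The invariant chain Cd74 (-0.63, adjusted p = 0.0553) and H2-DMb1 (-0.54, adjusted p = 0.0664) did not overlap and missed the threshold. The summed level of H2-Aa, H2-Ab1, H2-Eb1, Cd74, H2-DMa and H2-DMb1 ran from 112 to 136 TPM in CR_cisplatin, from 169.8 to 224 TPM in saline and from 26.7 to 48.9 TPM in BL_cisplatin.

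Class I genes, which present peptide to CD8 T cells, differed by less. B2m, the light chain, stood at 152, 123, 133 and 143 TPM against 161, 176, 197 and 161 TPM, without overlap and not called (-0.33, adjusted p = 0.145). H2-K1 (-0.22) and H2-D1 (-0.18) were not called, and H2-Q6 and H2-Q7 are near-identical copies whose reads could be divided unevenly between them. Of 16 macrophage and monocyte markers 10 were tested and none was called (0 of 10 also without CR_cisplatin 4), with 1 at an unadjusted p under 0.05. Their median log2 fold change was 0.01, and their summed level ran from 42.2 to 69.4 TPM in CR_cisplatin and from 48.7 to 65.2 TPM in saline. Csf1r (-0.01) and C1qa (0.05) were close in level between the groups, while Adgre1 (-0.24) and Lyz2 (-0.51) overlapped. No marker of the 16 was at 0 in all 8 libraries. Of 15 B and plasma cell markers 5 were tested and 0 were called with limma (0 at an unadjusted p under 0.05), with 4 above 0 and a median of 0.05. Their summed level ran from 20.4 to 41.0 TPM in CR_cisplatin and from 12.7 to 63.8 TPM in saline, where BL_vehicle 4 was far above the other 3 (at most 21.3 TPM), and the defining markers Cd79a and Ms4a1 did not exceed 0.110 TPM. The 16 T and natural killer cell markers were too low to be tested and summed to between 2.47 and 4.26 TPM against 3.06 and 6.33 TPM. The part of these cells in the class II difference was not tested. Mpeg1, a pore-forming protein of phagocytes, was called lower (1.65 ± 0.130 TPM against 2.72 ± 0.238 TPM, SD, n = 4; -0.49, adjusted p = 0.0284), as was the complement gene C2 (2.26 ± 0.351 TPM against 4.00 ± 0.273 TPM; -0.62, adjusted p = 0.0284). Each kept its call in 1 of the 8 fits without 1 library.

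**Figure D3:**
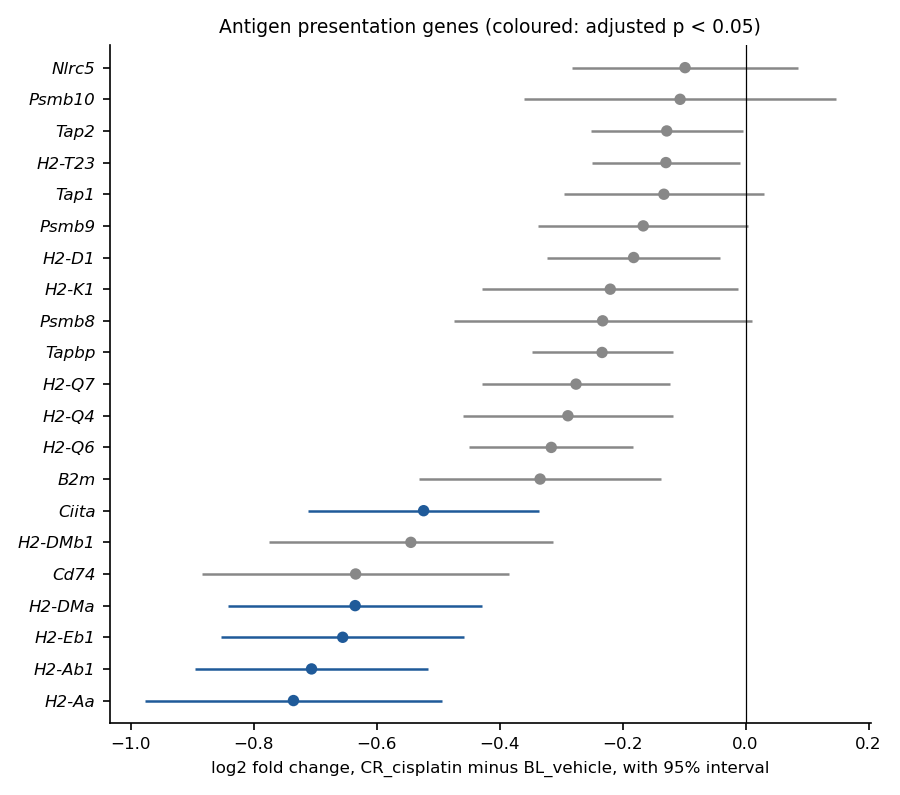
Log2 fold change (horizontal axis, CR_cisplatin minus BL_vehicle) of the 21 antigen presentation genes tested (vertical axis, ordered by value), with points for estimates, lines for 95% intervals and the 5 lower calls in colour. All points lie below 0, class II genes farthest.

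Of 22 chaperones tested 2 were called higher, the ER proteins Calr and Pdia6, and none lower. The list median was 0.20 beside 0.01 over all genes, and 13 had an unadjusted p under 0.05. The median depended on single libraries: it was 0.11 without CR_cisplatin 4 and 0.05 without CR_cisplatin 4 and BL_vehicle 3. Over all genes tested 0.326% were called higher and 13.9% had an unadjusted p under 0.05. Calr (chr8:84841850-84846934, minus strand), a calcium-binding chaperone of glycoproteins, stood at 212, 207, 197 and 228 TPM against 155, 163, 143 and 168 TPM (0.42 ± 0.06 SE, adjusted p = 0.0416). Pdia6, a disulfide isomerase, stood at 40.7, 38.8, 34.1 and 41.5 TPM against 28.5, 30.5, 26.4 and 29.1 TPM (0.42 ± 0.07 SE, adjusted p = 0.0483). The groups overlapped for neither, CR_cisplatin 3 being the lowest of its group in both. Each call held in 1 of the 8 fits without 1 library, and neither held without CR_cisplatin 4 (adjusted p = 0.11 and 0.13) or on TPM rescaled without the most abundant genes (adjusted p = 0.075 and 0.088).

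Other ER chaperones were higher in the mean without passing the test. Hyou1 stood at 35.3, 35.2, 32.2 and 38.6 TPM against 23.3, 27.8, 20.3 and 26.0 TPM, without overlap (0.53, adjusted p = 0.0626; 0.0398 with voom on recovered reads). Hsp90b1 did not overlap either (0.43, adjusted p = 0.122). Hspa5, the central ER chaperone, stood at 141, 125, 109 and 139 TPM against 87.8, 117, 72.5 and 102 TPM, and CR_cisplatin 3 lay below BL_vehicle 2 (0.45, adjusted p = 0.23). Dnajb11, a partner of Hspa5 outside the list, was called (33.1 ± 1.64 TPM against 24.8 ± 2.23 TPM, SD, n = 4; 0.41, adjusted p = 0.0483, in none of the 8 fits without 1 library). The cytosolic Hspa1a stood at 6.56, 6.71, 6.04 and 12.3 TPM against 42.3, 40.9, 14.3 and 7.91 TPM, BL_vehicle 1 and 2 being high, and Hspa1b had the same order of groups (log2 fold changes -1.38 and -1.37, adjusted p = 0.283 and 0.319).

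**Figure D4:**
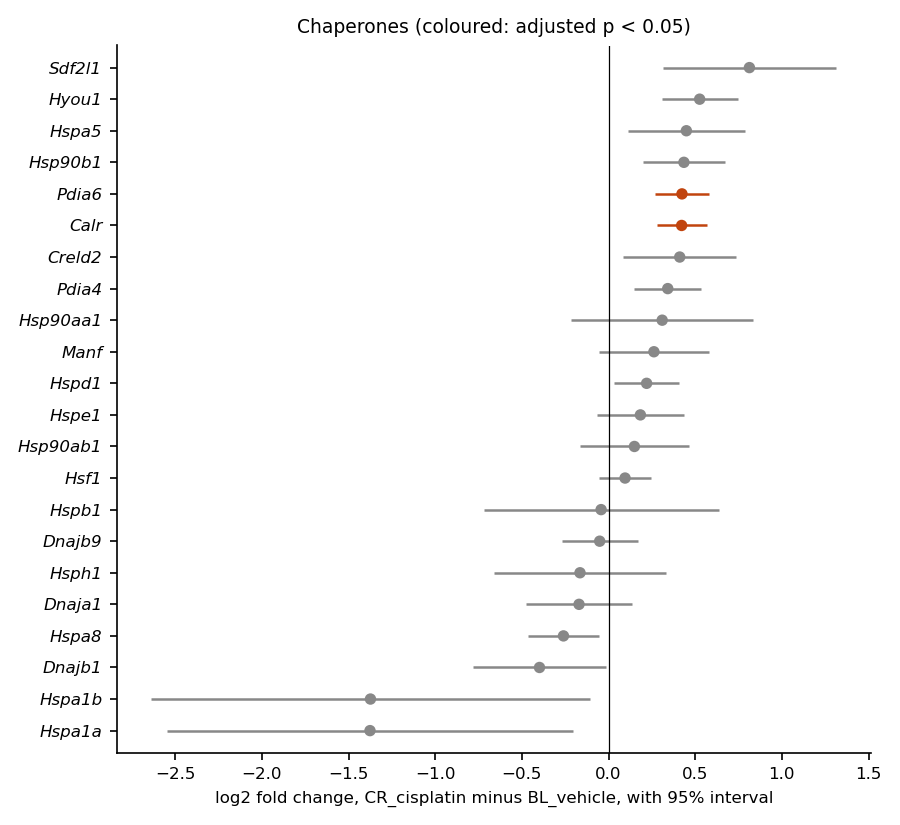
Log2 fold change (horizontal axis, CR_cisplatin minus BL_vehicle) of the 22 chaperones tested (vertical axis, ordered by value), with points for estimates, lines for 95% intervals and the calls in colour. ER chaperones occupy the upper end, and Hspa1a and Hspa1b have the widest intervals at the lower end.

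Outside these lists, the higher calls included epithelial transport and peptidase genes, but genes of both kinds were also called lower. Examples are the transporter gene Slc5a6 (-0.34, limma adjusted p = 0.0483) and the peptidase gene Cpq (-0.44, adjusted p = 0.0312). Slc10a2 (chr8:5083219-5105351, minus strand), the sodium-dependent bile acid transporter of apical membranes, stood at 35.5, 42.6, 31.9 and 46.8 TPM against 22.3, 19.4, 17.1 and 14.8 TPM. The groups did not overlap (1.05 ± 0.15 SE, adjusted p = 0.0338, called in 1 of 8 fits without 1 library). Itgb6 (chr2:60598292-60722643, minus strand), an epithelial integrin chain, stood at 27.8, 35.6, 27.7 and 32.1 TPM against 16.9, 16.1, 15.3 and 15.8 TPM. Its saline libraries were tightly grouped (0.89 ± 0.08 SE, adjusted p = 0.0114, called in 6 of 8). BL_cisplatin lay lower than saline for Slc10a2 (5.73 ± 1.95 TPM) and above CR_cisplatin for Itgb6 (56.4 ± 6.03 TPM). Slc16a1, a transporter of lactate and ketone bodies, stood at 11.6, 12, 12.4 and 16 TPM against 7.34, 8.19, 7.20 and 7.84 TPM (0.69, adjusted p = 0.0312, called in 1 of 8). It was the only called gene of 15 fasting and ketone genes tested, whose median was -0.02. Over all genes tested 0.326% were called higher, and the median was 0.01.

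A membrane peptidase, a hormone and an adhesion protein were also called higher. Enpep, the aminopeptidase that trims angiotensin II, stood at 39.6, 41.0, 44.9 and 39.9 TPM against 30.1, 32.6, 29.9 and 28.8 TPM (0.43, adjusted p = 0.0284). Guca2b, the hormone uroguanylin, stood at 265 ± 17.5 TPM against 196 ± 11.5 TPM (SD, n = 4; 0.43, adjusted p = 0.0319). Tmigd1, an epithelial adhesion protein, stood at 177 ± 14.7 TPM against 125 ± 6.30 TPM (0.50, adjusted p = 0.0284), with CR_cisplatin 3 the highest library for both. These 3 calls held in at most 2 of the 8 fits without 1 library.

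Other called rises were Tubb2a, a beta tubulin (0.75, adjusted p = 0.0338), Leo1, of the PAF complex of transcription (0.51, adjusted p = 0.0284), Tbx10 (0.91), Hist1h2af (0.91), Adap1 (0.46) and Josd2 (0.43). Tbx10 reached 1 TPM in every CR_cisplatin library but otherwise only in BL_vehicle 4 and HP_cisplatin 4, so it was tested only through CR_cisplatin. Hist1h2af belongs to a histone family of near-identical copies and rests on 9 to 49 reads per library, so its value is uncertain. Among 27 cytosolic ribosomal protein genes Rpsa (0.35, adjusted p = 0.0284) and Rps2 (0.28, adjusted p = 0.0424) were called. Of the 27, 24 had a value above 0, with a median of 0.07 beside 0.01 over all genes. Over all genes tested 0.326% were called higher. Reads of Rpsa can be shared with its pseudogenes, 1 of which (Rpsa-ps10) was also called. Of 23 cholesterol synthesis genes only Mvd was called (0.29, adjusted p = 0.0461), and the list median was 0.05.

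Among lower calls 2 genes encode consecutive enzymes of pyrimidine breakdown. Dpyd stood at 7.34, 6.97, 6.79 and 7.03 TPM against 9.84, 9.85, 9.66 and 11.8 TPM (-0.49, adjusted p = 0.0284), and Dpys at 1.72, 1.85, 1.28 and 2.11 TPM against 5.55, 4.77, 3.75 and 3.89 TPM (-1.0, adjusted p = 0.0284). Neither overlapped between groups, and each call held in 1 of the 8 fits without 1 library. Upb1, the next enzyme of the pathway, differed by -0.06 (adjusted p = 0.86). Apob (chr12:7977648-8016835, plus strand), the apolipoprotein of secreted lipoproteins, stood at 32.4, 24.7, 30.6 and 23.3 TPM against 56.0, 48.6, 51.6 and 47.8 TPM (-0.87 ± 0.11 SE, adjusted p = 0.0284, called in 3 of 8). The coagulation factors F5 (1.37 ± 0.191 TPM against 2.70 ± 0.347 TPM, SD, n = 4; -0.64, adjusted p = 0.0289) and F13b (26.6 ± 3.52 TPM against 37.9 ± 1.11 TPM; -0.50, adjusted p = 0.0494) were lower, in 2 and 1 of 8 fits. Snord35a (-0.88, adjusted p = 0.0491) rests on 1 to 10 reads per library and lost its call with voom.

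Targets of p53, the transcription factor that platinum damage to DNA activates, were not called. Of 32 tested 0 passed the limma threshold in either direction (9 at an unadjusted p under 0.05), and 0 passed it without CR_cisplatin 4. In 5 of them the groups did not overlap, all higher, against 6.43% of all genes in that direction. Of the 32, 25 were above 0 and the median was 0.15. Cdkn1a, the cell cycle inhibitor p21, stood at 2.74, 1.94, 9.0 and 3.84 TPM in CR_cisplatin 1 to 4, at 0.772, 0.494, 1.36 and 1.47 TPM in BL_vehicle 1 to 4 and at 177 ± 3.77 TPM (SD, n = 4) in BL_cisplatin. The first 2 groups did not overlap, and CR_cisplatin 3 was the highest (1.28 ± 0.36 SE, 95% interval 0.45 to 2.1, adjusted p = 0.175). Ccng1 stood at 78.5, 76.1, 137 and 93.4 TPM against 59.3, 63.3, 56.2 and 70.7 TPM, again without overlap (0.58, adjusted p = 0.2). CR_cisplatin 3 was the highest of the 8 libraries for 25 of the 32 targets, including Phlda3 (9.47 TPM) and Bax (29.6 TPM). Without it the median difference of means was 0.07.

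Of 24 tubular injury markers tested 0 passed with limma (4 at an unadjusted p under 0.05), with a median of 0.02. Havcr1 (KIM-1) stood at 1.94, 0.317, 0.989 and 0.518 TPM against 0.339, 0.306, 1.33 and 1.06 TPM, and Lcn2 (NGAL) at 2.43, 0.634, 1.19 and 0.717 TPM against 0.841, 0.428, 0.987 and 0.409 TPM. Both overlapped (95% intervals -0.54 to 0.78 and -0.17 to 0.93). Of 32 proximal tubule markers tested 0 were called (7 at an unadjusted p under 0.05), with a median of 0.02, and Slc34a1, the phosphate transporter, stood at 1406 to 1915 TPM against 1580.1 to 2173 TPM. Umod, the thick ascending limb marker uromodulin (-0.27, 95% interval -0.69 to 0.15), and Cth, which makes cysteine and hydrogen sulfide (0.04, -0.11 to 0.20), were not called. Markers of the distal convoluted tubule were above 0 in 9 of 9 tested, with a median of 0.25 and 0 calls (4 at an unadjusted p under 0.05), led by the sodium-calcium exchanger Slc8a1 (113, 166, 109 and 131 TPM against 85.2, 103, 83.0 and 98.4 TPM; 0.47, adjusted p = 0.183). Of the intercalated cell markers, 1 of 11 was called, the proton pump subunit Atp6v0a4 (0.25, adjusted p = 0.0338), where 0.326% of all genes tested were called higher.

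**Figure D5:**
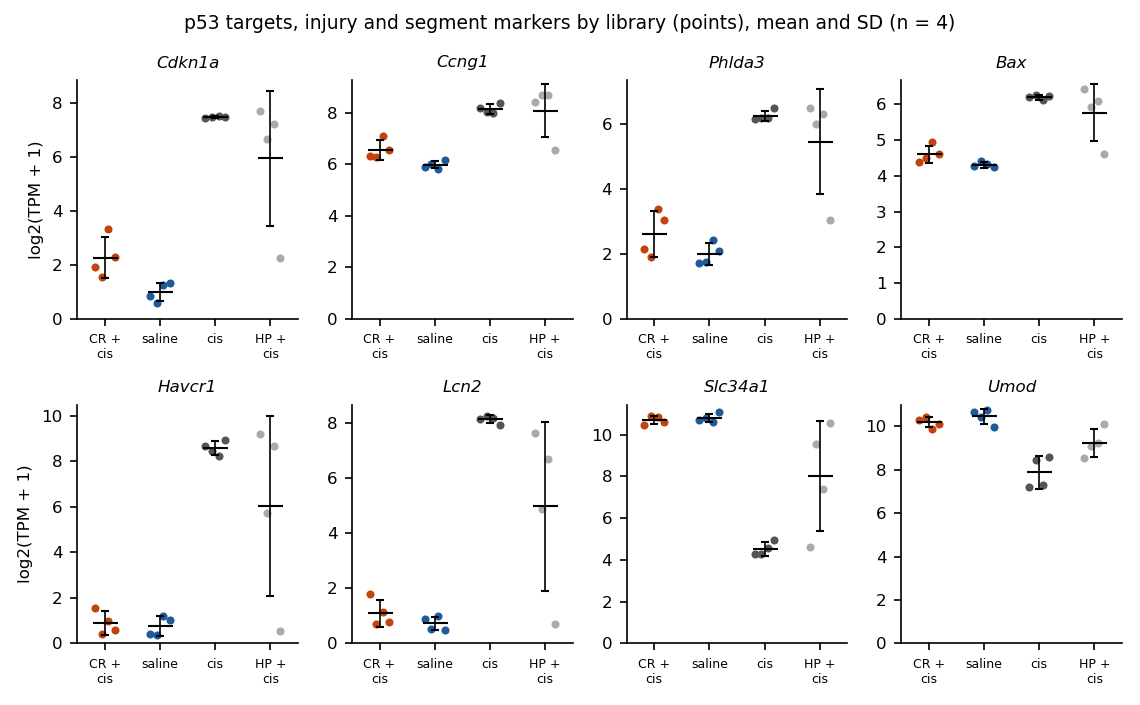
Log2(TPM + 1) of p53 targets, injury markers and segment markers (vertical axes, from 0) in each library of the 4 groups (horizontal axes: calorie restriction plus cisplatin, saline, cisplatin, hypoxia plus cisplatin), with points for libraries and bars for mean and SD of n = 4. CR_cisplatin points lie near saline for Havcr1, Lcn2, Slc34a1 and Umod and above saline but far below cisplatin alone for Cdkn1a.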

How the data were processed

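Kidney RNA of 16 libraries was sequenced, and 8 were compared here. The authors deposited a table of TPM values for 46078 genes, whose columns each sum to 1000000. Reads were handled with STAR 2.5 and featureCounts of Subread 1.5 on mm10, per the submitters' processing notes. The strand setting and the annotation release are not given in the sources used here. TPM ties all genes of a library to 1 total, so abundant transcripts move the rest.

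Genes with TPM of at least 1 in at least 4 of the 16 libraries were kept. log2(TPM + 1) was fitted in limma 3.58.1 (R 4.3.3, statmod 1.5.0) on the 2 groups of 4, with a trended, robust prior variance, 2-sided tests and Benjamini-Hochberg adjustment over 15014 genes at 0.05. Samples were grouped by the labels for preconditioning and injection. The members and gene lists were chosen with earlier results of these data known.

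Whole reads were recovered from TPM with GENCODE M21 exon lengths: of 32198 genes with reads, 24571 (76.3%) came out whole within 0.0001 reads with the annotated length and 7627 with a searched length. In simulated libraries 94.7% of 5898 genes with reads were recovered exactly, and voom on the recovered reads called 123 genes. Tested on simulated data for this comparison (20 sets of 15014 genes with 200 changed), the limma fit recovered 83.4% of 1.5-fold, 92.9% of 2-fold and 99.1% of 4-fold changes, with 5.18% of calls false. The simulated noise was independent between genes and no planted change was below 1.5-fold, while only 29 of the 80 calls lay beyond 1.5-fold. These folds are on the scale of log2(TPM + 1). These rates therefore cannot be read as those of the 80 calls.

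Named genes are the 14 largest rises and 14 largest falls among calls without overlap and with a mean log2(TPM + 1) of at least 1, passing over gene models without a standard symbol, pseudogenes, Xist and Y-linked genes. Havcr1, Lcn2, Cdkn1a, Slc34a1, Umod and Cth were added, and up to 5 members of each list described, by adjusted p. Dnajb11, Dpyd, Upb1, F13b, Mpeg1, Slc5a6, Cpq, Gm24445, Adipoq and further list members were chosen after their values were seen. Some named genes are not reported here. Alternatives were another pseudocount, 2 other filters, rescaling without abundant genes, the fit on 16 libraries, a plain prior and leaving out each library. Voom and leaving out the pair CR_cisplatin 4 and BL_vehicle 3 were added after seeing the data.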

Additional observations from a re-analysis of the deposited data

Results flagged for a closer look

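In 12 of 180 groups of 4 libraries tested over 90 named genes, 1 library lay far from the other 3 of its group, and chance gives about 1 in 20 groups. In BL_vehicle 3, Per3 was high at 9.83 TPM (others 8.86 to 8.96), H2-DMa was high at 4.46 TPM (others 3.21 to 3.32) and Anpep, a brush border peptidase, was low at 34.3 TPM (others 39.0 to 39.9). In BL_vehicle 4, Tbx10 was high at 1.56 TPM (others 0.810 to 0.855), Por, the reductase of cytochrome P450, was high at 91.0 TPM (others 77.1 to 79.1) and the ribosomal gene Rplp1 was low at 396 TPM (others 424 to 426). Ciita was high in BL_vehicle 2 at 1.80 TPM (others 1.45 to 1.46). The macrophage receptor gene Mrc1 was high in BL_vehicle 1 at 1.15 TPM (others 0.911 to 0.926).

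Among the CR_cisplatin libraries, Tmigd1 was high in CR_cisplatin 3 at 199 TPM, the others lying at 169.6 to 170.2. Guca2b was high in the same library at 291 TPM (others 253 to 259). In CR_cisplatin 4, the clock output gene Tef was low at 28.1 TPM (others 39.1 to 41.1) and the sterol carrier gene Stard4 was high at 8.46 TPM (others 8.31 to 8.33).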

How the results depend on the processing

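The 80 calls kept their direction under every alternative that tested them. As their groups did not overlap, only rescaling and voom could have reversed it. The number of calls did not hold. With limma there were 9 calls (3 higher, 6 lower) with no filter on low values, where 28578 genes were tested, and 8 (2 higher, 6 lower) in the fit on all 16 libraries. A plain prior variance gave 47 calls, 26 of them higher. Rescaling without abundant genes gave 29 higher calls. Voom on recovered reads gave 123, 53 of them lower, and 73 of the 80 were among them. Leaving out 1 library gave 1 to 43 calls, 0 to 25 higher and 1 to 18 lower. No gene was called higher without BL_vehicle 2 or BL_vehicle 3, where 1810 and 1858 genes had an unadjusted p under 0.05. Without the pair CR_cisplatin 4 and BL_vehicle 3, the libraries with the most Adipoq, 4 genes were called, 0 higher and 4 lower (1688 at an unadjusted p under 0.05). Except where an alternative tested other genes or fewer libraries, the cause was not tested. A pseudocount of 0.1 (78 calls) and a filter on the 8 libraries (89 calls) stayed within 1.5 times. CR_cisplatin 1 is the only library compared with its title code, and without it 14 genes were called.

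Of 37 named genes with a call, 36 kept it with a pseudocount of 0.1 and with voom, 30 after rescaling, 27 with the plain prior, 8 in the fit on 16 libraries and 5 with no filter. Hyou1 gained a call with voom, and Anpep with voom and with the filter on the 8 libraries. No paired analysis was possible because the labels number no replicates. Genes on few reads, such as Snord35a, Hist1h2af, Gm24445 and Ighv6-3, are limited by depth.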

Other observations

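Nuclear genes of oxidative phosphorylation, the chain that makes ATP in mitochondria, differed slightly: 27 of 29 tested had a log2 fold change above 0, with a median of 0.07 beside 0.01 over all genes. With limma 0 were called (9 at an unadjusted p under 0.05). Immediate early genes, which respond within minutes to stimuli, had a median of -0.22 with 17 of 21 below 0 and 0 calls (2 at an unadjusted p under 0.05), and the median was -0.08 without CR_cisplatin 4. Interferon-stimulated genes had 22 of 33 above 0, a median of 0.09 and 0 calls (8 at an unadjusted p under 0.05). Genes of DNA repair and damage signalling had a median of -0.01 over 20 tested, with 0 at an unadjusted p under 0.05.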
